A study of Homo sapiens with 4 samples.

Results

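The 10 genes described here are in common use as markers of intestinal stem cells, or of colon cancer cells with stem cell traits, and were measured in HT-29 colorectal cancer cells with and without silencing of the Wnt regulator *APC*. The genes were *ASCL2*, *LGR5*, *LGR4*, *SMOC2*, *OLFM4*, *PROM1*, *CD44*, *LRIG1*, *MSI1* and *ALCAM*, taken by name from common marker use, with earlier results of these data known, and they were 10 of the 19729 genes with a deposited value. HT-29 is an established human colorectal cancer cell line that is microsatellite stable (MSS) and carries BRAF-V600E and a truncating *APC* mutation. Cells had been stably transduced with a lentivirus for a short hairpin RNA (shRNA) under doxycycline (DOX) control, which either targets *APC* (APC shRNA) or is a non-silencing control (NonS), and were used 3 to 5 passages later. All 4 libraries came from cells that received 500 ng/ml DOX for 72 h, so the NonS cells share both the virus backbone and the DOX, and no library of untreated or untransduced cells was analysed here. Each condition was sequenced in biological duplicates (n = 2, replicates I and II), from 1 cell line and 1 APC shRNA. The transduced cells are not described as clones.

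In the crypt of the normal intestine, stem cells at the base are kept dividing by Wnt signals, and R-spondins strengthen these signals by binding LGR receptors at the cell surface. APC is part of the complex that marks β-catenin for destruction, and without it β-catenin enters the nucleus and, with TCF factors, drives Wnt target genes. Several stem cell markers, among them *LGR5* and *ASCL2*, are known Wnt targets, whereas others were chosen as markers for their location at the crypt base or for use in cell sorting.

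The deposited values are whole numbers, 1 per gene and library, on a scale that behaved as a level per transcript length, so levels of different genes are compared on this scale below. Depth in reads is unknown, no counting interval can be given, and a value under about 10 is known only to the nearest whole number. The sums of all values were between 398338 and 413595 per library, and between 12051 and 12320 genes were above 0. The deposited value of the target gives no check of the labels: *APC* had a value of 3 in NonS replicate I and 0 in NonS replicate II and both APC shRNA libraries. The study itself lists *APC* among the genes downregulated in this comparison with DESeq2. Epithelial identity was clear in every library, with *KRT8* between 1202 and 1534 and *KRT18* between 1550 and 2083. The intestinal homeobox genes *CDX1* and *CDX2*, from the same list of colonic epithelium markers, were at 4 or less in every library. The 4 fibroblast and 3 endothelial markers were at 0 throughout, as were 3 of 3 enteroendocrine markers, and the summed leukocyte markers were 5 and 6 in NonS and 3 and 3 in APC shRNA, all from *CD68*.

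Of the 10 stem cell markers, 7 were above 0 in these cells. *ASCL2* rose 13.5-fold and *PROM1* 1.53-fold after *APC* silencing, whereas *LGR4* had its lowest values in the APC shRNA cells and *LGR5* its highest. Means of *CD44* and *LRIG1* in APC shRNA cells were 0.827 and 1.41 times those in NonS cells. *SMOC2*, *OLFM4* and *MSI1* were at 0 in all 4 libraries, and *ALCAM* was between 1 and 2.

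**Figure D1:**
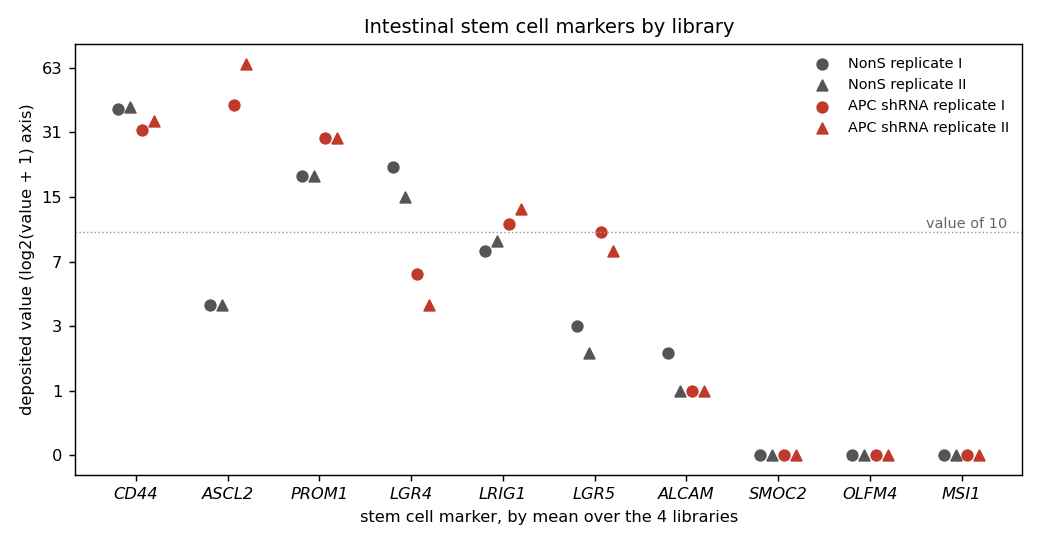
Deposited value of each marker (vertical axis, log2(value + 1) spacing, no unit) in the 4 libraries, with NonS in grey and APC shRNA in red, circles for replicate I and triangles for replicate II. *ASCL2* lies at 4 in the NonS cells, against 42 and 66 after silencing, *LGR4* is lower and *LGR5* higher in APC shRNA cells, and *SMOC2*, *OLFM4* and *MSI1* lie at 0.

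*ASCL2* encodes a basic helix-loop-helix transcription factor that is needed for the stem cell state of the crypt base. The gene (ENSG00000183734) lies on the minus strand of chr11:2268495-2270952 (GRCh38) and has 1 annotated transcript of 1852 bases. Its value was 4 in both NonS libraries, against 42 (I) and 66 (II) after *APC* silencing. Both APC shRNA libraries thus lay far above both NonS libraries, although they also differed from each other. Means were 4 ± 0 in NonS and 54 ± 17 in APC shRNA (SD, n = 2). On the log2(value + 1) scale, which understates changes of low genes, the difference was 3.42 with a standard error (SE) of 0.26 and a 95% interval of 2.62 to 4.23, at an adjusted p of 0.0423 with limma. Only 5 of the 5376 genes tested had a larger rise. Among the 12799 genes above 0 in at least 1 library, *ASCL2* went from the 33.5th percentile in NonS to the 91.6th in APC shRNA. None of the 50-base words of its transcript occurs in another annotated gene, 50 bases being the read length of the study.

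*PROM1* encodes the pentaspan membrane protein prominin 1, whose glycosylated form is recognised as CD133 in the sorting of colon cancer stem cells. The gene (ENSG00000007062) lies on the minus strand of chr4:15963076-16084378 and has 20 annotated transcripts, which gene-level values do not separate. Its value was 19 in both NonS libraries and 29 in both APC shRNA libraries. The duplicates were identical, so the conditions did not overlap. The log2 difference was 0.58 (SE 0.05, 95% interval 0.44 to 0.73), at an adjusted p of 0.0423. Equal duplicates in both conditions occurred in 132 of the tested genes, and their SE rests on the variance that limma borrows from other genes. Of its 50-base words, 0.767% also occur in *FGFBP2*, which shares 166 exonic bases on the same strand.

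Over all genes tested, 4.33% were called higher and 3.7% lower in APC shRNA at an adjusted p under 0.05. Of the 5 markers that reached a mean of 10 and so were tested, 2 were called higher and 0 lower. These 5 cannot stand for all 10, since *ASCL2* and *LRIG1* passed that filter only through their APC shRNA values and *LGR4* only through its NonS values. All 5 were at an unadjusted p under 0.05, as were 1912 of the 5376 genes. Fits with 3 libraries called none of the 5376 genes tested, whichever library was left out (NonS replicate I or II, APC shRNA replicate I or II). *ASCL2* then had adjusted p-values between 0.148 and 0.213 and *PROM1* between 0.148 and 0.208 with limma, with a difference in *ASCL2* of 3.10 to 3.74.

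**Figure D2:**
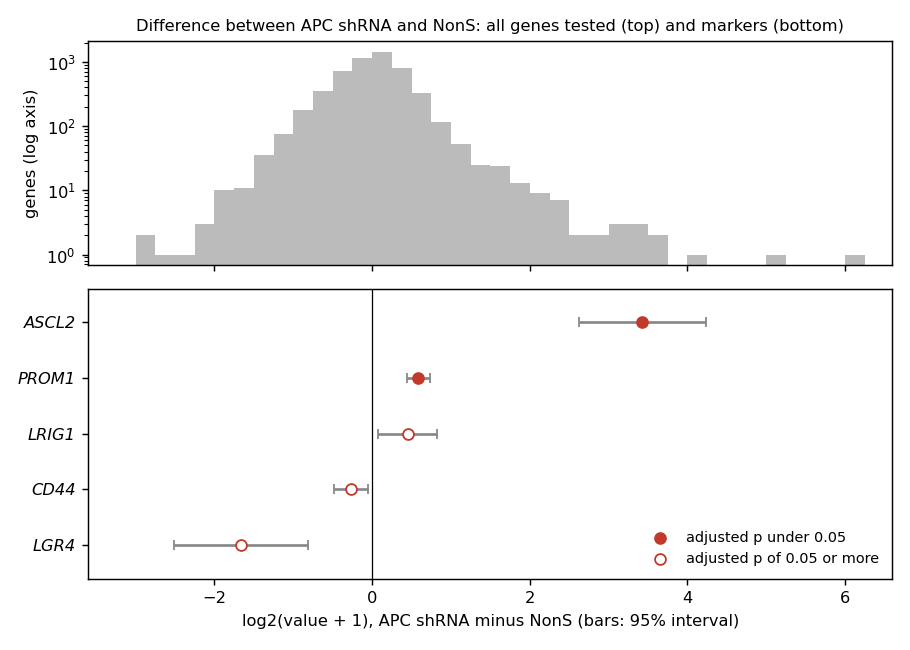
Log2(value + 1) difference, APC shRNA minus NonS, as a histogram over the 5376 genes tested (top, log axis) and for the 5 markers tested (bottom, points with 95% intervals, n = 2 libraries a condition). Filled points mark an adjusted p under 0.05, reached by *ASCL2* at 3.42 and *PROM1* at 0.58, and *LGR4* lies at -1.67.

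*LGR4* and *LGR5* encode paralogous 7-transmembrane receptors for R-spondins. *LGR5* marks the cycling stem cells of the crypt base and is itself a Wnt target, whereas *LGR4* is expressed more broadly in the epithelium. The genes lie on chr11:27365961-27472775 (minus strand, ENSG00000205213) and chr12:71439770-71586310 (plus strand, ENSG00000139292). Their coding sequences are 61.6% identical in alignment, and the longest identical run is 17 bases. The most alike 60 coding bases that lie within a single exon of both genes, exon 9 of 18 in each, are printed to show how far reads of both genes differ even there. Capitals mark the 16 positions at which the other gene has another base, and 44 are identical. The stretches lie at chr11:27380652-27380711 (minus strand) for *LGR4* and at chr12:71566404-71566463 (plus strand) for *LGR5* in GRCh38, with gene models of GENCODE v29.
LGR4: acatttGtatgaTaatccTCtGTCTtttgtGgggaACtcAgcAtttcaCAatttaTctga
LGR5: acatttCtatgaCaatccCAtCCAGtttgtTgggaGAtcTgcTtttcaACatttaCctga
No 50-base word of the *LGR4* transcript occurs in another gene, and for *LGR5* 2.5% do, all of them in *AC078860.1*, a gene on the opposite strand. *LGR4* and *LGR5* values can therefore not be exchanged between these genes by reads that match both without mismatch.

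*LGR4* had values of 21 and 15 in NonS cells, against 6 and 4 after silencing (replicates I and II). The conditions did not overlap, and the higher APC shRNA value was well under the lower NonS value. The means were 18 ± 4.24 and 5 ± 1.41 (SD, n = 2), 0.278 times as high in APC shRNA. The log2 difference was -1.67 (SE 0.27, 95% interval -2.51 to -0.82), but the adjusted p of 0.0625 missed the threshold in limma. It passed in 7 of 11 alternative fits that used all 4 libraries, where the adjusted p ranged from 0.00306 to 0.104. Among all genes tested, 22 had a more negative difference.

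*LGR5* had values of 3 and 2 in NonS, and of 10 and 8 in APC shRNA. Its mean was 3.6 times as high in APC shRNA, 9 ± 1.41 against 2.5 ± 0.71 (SD, n = 2), with no overlap. Because its mean over the libraries was under 10, it was outside the test. In a fit of all 12799 genes above 0 in at least 1 library the log2 difference was 1.52 (SE 0.23, 95% interval 0.70 to 2.34), at an adjusted p of 0.0813 with limma. In that fit 7.44% of genes were called higher and 4.02% lower.

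The third receptor of the family, *LGR6*, was at 0 in both NonS libraries, against 1 and 2 in APC shRNA cells. The sum over *LGR4*, *LGR5* and *LGR6* was 24 and 17 in NonS and 17 and 14 in APC shRNA, so that the ranges met at 17. Within this sum *LGR5* made up 12.5% and 11.8% in the NonS libraries, and 58.8% and 57.1% in the APC shRNA libraries. The main receptor by level was thus *LGR4* in NonS cells and *LGR5* in APC shRNA cells, in both duplicates. The ratio of *LGR5* to *LGR4* was 0.143 and 0.133 in NonS, and 1.67 and 2.0 in APC shRNA. If every value is allowed to be wrong by 1 unit, the ratio stays at or under 0.214 in NonS and at or above 1.29 in APC shRNA. With 2 libraries a condition an exact permutation test of this share cannot give a two-sided p under 0.333, and none is given.

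**Figure D3:**
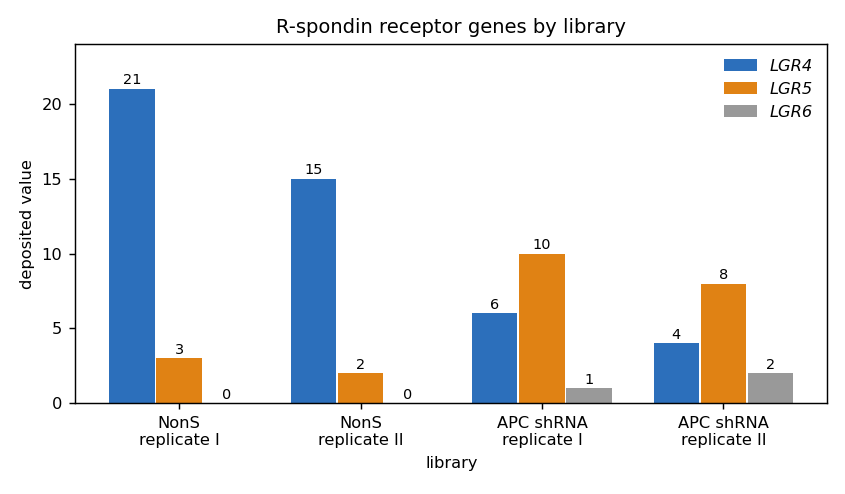
Deposited values of *LGR4* (blue), *LGR5* (orange) and *LGR6* (grey) in each of the 4 libraries, with the value printed above each bar. *LGR4* is the highest of the 3 bars in both NonS libraries (21 and 15), and *LGR5* is the highest in both APC shRNA libraries (10 and 8).

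*CD44*, a hyaluronan receptor on the cell surface, was the most abundant marker in NonS cells. Its value was 40 and 41 in NonS and 32 and 35 in APC shRNA. Values of both APC shRNA libraries lay below both NonS libraries by a small margin, with a log2 difference of -0.27 (SE 0.07, 95% interval -0.49 to -0.05) and an adjusted p of 0.108. The gene (ENSG00000026508, chr11:35138870-35232402, plus strand) has 39 annotated transcripts, and the splice variants that carry the v6 segment, which are used as colon cancer stem cell markers, were not measured apart.

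*LRIG1* encodes a membrane protein that restrains ErbB receptors and marks crypt cells of which many divide slowly. Its value was 8 and 9 in NonS and 11 and 13 in APC shRNA. Both APC shRNA values were higher, with a log2 difference of 0.45 (SE 0.12, 95% interval 0.08 to 0.82), but the adjusted p was 0.109. Here the gene model limits the value: 13.7% of the 50-base words of the transcript also occur in *SLC25A26*, a gene on the opposite strand that shares 907 exonic bases, and the strand setting of the counting is not given in the sources used here. *LRIG1* (ENSG00000144749) lies at chr3:66378797-66501263 on the minus strand.

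*ALCAM*, an adhesion molecule known as CD166, was at 2 and 1 in NonS and 1 in both APC shRNA libraries, which overlap. *SMOC2*, a secreted matrix protein of the crypt base, *OLFM4*, a secreted glycoprotein of human crypt base cells, and *MSI1*, an RNA-binding protein of stem and progenitor cells, were listed at 0 in every library, and no fold can be given for them. A value of 0 on this scale does not show that a gene is not expressed.

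Of the 7 markers above 0, *ASCL2*, *LGR5*, *PROM1* and *LRIG1* had both APC shRNA values above both NonS values, *LGR4* and *CD44* had both below, and *ALCAM* overlapped. Over the genes tested, which leave out *LGR5* and *ALCAM*, 33.0% lay above and 27.5% below in this sense. A lack of overlap on its own thus says little at n = 2. In NonS cells the order of the mean levels was *CD44*, *PROM1*, *LGR4*, *LRIG1*, *ASCL2*, *LGR5* and *ALCAM*. There *PROM1* (19 and 19) and *LGR4* (21 and 15) were not separated by their ranges, and *LGR5* (3 and 2) touched *ALCAM* (2 and 1). In APC shRNA cells the order was *ASCL2*, *CD44*, *PROM1*, *LRIG1*, *LGR5*, *LGR4* and *ALCAM*, with no overlap between neighbours. *ASCL2* went from rank 5 to rank 1 and *LGR4* from rank 3 to rank 6. In bulk RNA, fewer cells that express a gene and less RNA of it per cell cannot be told apart.

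Upstream sequence in the RefSeq promoter table (GRCh38.p14) covered 13 start sites of 7 markers, but none of *ASCL2*, *LGR5* or *MSI1*. Each window, as given in that table, was searched on both strands for CTTTGAT, a core of the sequence that TCF factors bind. It was found in 1 of the 13 windows, against 2.62% of 35116 windows in the table. The match belonged to *PROM1*, the one called marker with a window, and is printed for that reason. The window lies at chr4:16076119-16076368 (minus strand), before an alternative start within the gene, and the match (in capitals) begins at position -179 relative to that start.
PROM1: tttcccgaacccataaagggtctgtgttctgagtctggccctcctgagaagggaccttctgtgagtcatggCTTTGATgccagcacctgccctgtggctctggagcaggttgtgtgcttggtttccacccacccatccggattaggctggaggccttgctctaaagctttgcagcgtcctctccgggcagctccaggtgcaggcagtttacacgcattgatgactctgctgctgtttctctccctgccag
A match is a description of these letters only. Windows of *LGR4*, *CD44*, *LRIG1*, *SMOC2*, *OLFM4* and *ALCAM* held none.

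The R-spondin pathway around the LGR receptors was read from a list of 20 genes, of which 12 were tested, 7 were called higher and 0 lower, beside 4.33% and 3.7% over all genes tested. *NKD1*, *NOTUM* and *SP5* passed the filter only through their APC shRNA values, and the list holds known Wnt targets that the study itself names as raised in these cells, so the count is a description and no independent evidence of its direction. The ligand genes *RSPO1* to *RSPO4* were at 0 in all libraries. *RNF43*, a ubiquitin ligase that removes Wnt receptors from the membrane and is itself bound by R-spondin together with LGR proteins, was at 31 and 33 in NonS cells, against 67 and 70 in APC shRNA cells. Its log2 difference was 1.07 (SE 0.06), at an adjusted p of 0.0423. *ZNRF3*, its paralog, was at 13 and 15 in NonS cells, against 39 and 55 in APC shRNA cells, a difference of 1.66 (SE 0.21, adjusted p 0.0490). Both ligases had higher values in the APC shRNA cells, in which *LGR5* also exceeded *LGR4*, and a relation between these was not tested.

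The strongest rises in the list were those of the Wnt feedback genes. *NKD1*, an inhibitor of Dishevelled, was at 0 in both NonS libraries, against 28 and 36 in APC shRNA cells. *NOTUM*, a secreted enzyme that inactivates Wnt ligands, was at 1 in both NonS libraries, against 108 and 168 in APC shRNA cells. *SP5*, a transcription factor and Wnt target, was at 3 and 4 in NonS cells, against 65 and 83 in APC shRNA cells. Each of these 3 differences had an adjusted p of 0.0423, and *AXIN2* and *DVL3* were the other calls. *ZNRF3*, *AXIN2* and *DVL3* are named here after their values were seen.

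Among 13 other genes of the crypt base, 6 were tested, 2 were called higher and 0 lower, beside 4.33% and 3.7% over all genes tested. The median log2 difference of the 6 was 0.60, against 0.03 over all genes tested. These shares and this median over all genes are also the background for the lists that follow. *PTK7*, a Wnt co-receptor used to sort human colonic stem cells, was at 14 and 13 in NonS cells, against 105 and 127 in APC shRNA cells, a difference of 3.01 (SE 0.13, adjusted p 0.0423). The study itself names *PTK7* as raised in these cells, so the count for this list is no independent evidence of its direction. *MEX3A*, an RNA-binding protein of a slowly cycling stem cell group, was at 11 and 9 in NonS cells, against 36 and 38 in APC shRNA cells, a difference of 1.79 (SE 0.12, adjusted p 0.0423).

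Of the helix-loop-helix proteins that pair with *ASCL2* (E proteins) or block such pairing (ID proteins), 4 of 7 were tested, 1 was called higher and 0 lower. *TCF3*, an E protein, was at 28 and 29 in NonS cells, against 42 and 41 in APC shRNA cells, a difference of 0.53 (SE 0.05, adjusted p 0.0452). The median over the 4 was 0.08. The E protein gene *TCF4*, which is not the Wnt factor *TCF7L2*, was at 0.

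Of 12 genes for hyaluronan turnover, CD44 anchoring and CD44 splicing, 5 were tested, with 1 call in each direction and a median of -0.49. Both APC shRNA values lay below both NonS values for 4 of the 5 (*EZR*, *MSN*, *ESRP1* and *ESRP2*), beside 27.5% over all genes tested. Of these 4 only *MSN* was called, and the other 3 are named after their values were seen. *HYAL2* passed the filter only through its APC shRNA values. *HYAL2*, a hyaluronidase, was at 8 and 9 in NonS cells, against 19 and 21 in APC shRNA cells, a difference of 1.14 (SE 0.10, adjusted p 0.0428). *MSN*, which links CD44 to the actin cortex, was at 100 and 105 in NonS cells, against 67 and 60 in APC shRNA cells, a difference of -0.68 (SE 0.08, adjusted p 0.0483). Of 8 other colon cancer stem cell markers 6 were tested and 1 was called lower: *ITGA6*, a laminin receptor subunit, was at 65 and 74 in NonS cells, against 19 and 12 in APC shRNA cells, a difference of -2.13 (SE 0.26, adjusted p 0.0483). The median over these 6 was -0.03, and *CD24* and *ALDH1A1* were between 174 and 287 in every library.

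No gene of the Notch list (3 of 12 tested, median -0.08) or of the receptor kinase list (3 of 6 tested, median 0.02) was called in either direction. Highest by level were *HES1*, the Notch target, between 25 and 27, and *ERBB3*, between 46 and 61, in the 4 libraries. Paralogs of the markers gave 0 calls in 3 tested of 13. *BCAM*, the paralog of *ALCAM*, was at 37 and 57 in NonS cells, against 96 and 122 in APC shRNA cells, with a difference of 1.22 (SE 0.28) at an adjusted p of 0.0930. *PROM2* was between 15 and 20 and *MSI2* between 10 and 15 in all libraries. *SMOC1*, *OLFM1*, *OLFM2*, *OLFM3* and *LYVE1* were at 0. *LRIG2* and *LRIG3* were at 2 or 3, and *MCAM* was at 1 in both NonS libraries, against 3 and 4 in APC shRNA cells.

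Among differentiation markers, *KRT20*, a keratin of mature colonic epithelium, was between 180 and 266 in the 4 libraries. *LYZ* was between 614 and 906 while the Paneth cell defensins *DEFA5* and *DEFA6* were at 0. Enterocyte markers summed to at most 2 in any library, as did tuft cell markers. The summed goblet cell markers found (3 of 4 listed) were 47 and 46 in NonS and 24 and 19 in APC shRNA. Of these, *SPDEF*, a transcription factor of goblet cells, was at 24 and 26 in NonS cells, against 10 and 8 in APC shRNA cells. Its difference was -1.38 (SE 0.13, adjusted p 0.0452 with limma), and it passed the filter only through its NonS values. The other tested one, *TFF3*, had a difference of -0.73 at an adjusted p of 0.0927, and *FCGBP* was under the filter. The part of these genes in the stem cell marker values was not tested.

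Similarity of pattern was measured as the Euclidean distance over the 4 libraries, after the mean log2(value + 1) of the NonS libraries had been subtracted from each gene. *ASCL2* was closest to *CDKN1C*, a cyclin-dependent kinase inhibitor, with values of 4 and 4 in NonS and 42 and 56 in APC shRNA and a distance of 0.233. Next came *WNT11*, *PRSS23*, *LARGE2* and *PADI2*, the last at 0.588. For *ASCL2* this distance mostly follows the size of the rise, and only 5 genes tested rose more. *CDKN1C*, *PRSS23*, *LARGE2* and *PADI2* passed the filter only through their APC shRNA values, as did *ASCL2*. *PROM1* had 3 genes at a distance of 0, *ABCC1*, *LRRC41* and *TPRA1*, followed by *DECR1* and *DVL3*. A distance of 0 between different levels, such as 19 for *PROM1* and 11 for *TPRA1* in NonS, reflects the small set of ratios that whole numbers allow.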

How the data were processed

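RNA of HT-29 cells was sequenced with a stranded mRNA kit and 50-base single reads. Per the methods of the study, TopHat2 mapped the reads, and htseq-count assigned them to genes of GENCODE v29. The submitters' processing notes name bcl2fastq 2.19.0.316 and DESeq2 1.4.1, and hg19 as build, whereas the methods name human assembly 38; coordinates given here are those of GRCh38. The deposited files list a single whole number for each gene in each library, taken here as a score whose scale is not given in the sources used here, since it did not behave as a read count. The variance between duplicates of low genes was only 0.474 (NonS) and 0.345 (APC shRNA) of that of a Poisson count, and the sum of value times length of the longest transcript in kb was between 980841 and 984873 in every library. The authors' table of means, log2 fold changes and adjusted p-values was not used.

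The deposited score was compared as log2(value + 1) with limma 3.58.1 in R 4.3.3 (lmFit, eBayes with a mean-variance trend), without a replicate block, in the 5376 genes whose mean reached 10. Adjustment was by Benjamini-Hochberg over all of them, with calls at an adjusted p under 0.05. SE and 95% intervals come from this fit. A fit of all 12799 genes above 0 gave the values of markers with a lower mean. No count model was run. Alternatives covered scaling, filters, pseudocount, moderation, GC content, the replicate block, the study's thresholds and each library left out. Gene lists were described by counts and medians, with no set test. GENCODE v29 gave gene models, and RefSeq (GRCh38.p14) gave promoter windows. Tables and figures were made with Python 3.11.15, pandas 2.3.3 and matplotlib 3.10.9.

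Genes were named by a rule: all 10 markers, *APC*, all paralogs, of each other list up to 4 called genes (or else those with the highest mean), and the 5 genes nearest in pattern to each called marker. Cell type markers were added where they check the labelled tissue. The markers and lists were chosen with earlier results of these data known. *MUC2* of the goblet list was not analysed here. A paralog in the lists is not reported here.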

Additional observations from a re-analysis of the deposited data

How the results depend on the processing

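With 2 libraries a condition and an unknown depth, precision is limited, and low values are known only to the nearest whole number. Over the marker differences, 63 values under alternatives kept their direction and side of the threshold, 9 passed it only under the alternative, 10 no longer passed it (*ASCL2* and *PROM1* without any single library and at the study's thresholds) and 0 reversed. *ASCL2* (2.68 to 3.69) and *PROM1* (0.50 to 0.73) stayed called at 0.05 in every fit with 4 libraries in which they were tested. *LGR4* ranged from -1.84 to -1.20. *ASCL2*, *LGR4* and *LRIG1* were not tested where every library had to reach 10. The cause of the changes below was not tested, except that fewer or more genes are tested under another filter.

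All genes called were 233 higher and 199 lower. Median-of-ratios scaling gave 373 and 405, upper-quartile scaling 336 and 349, and scaling to equal totals 343 and 369. They were 952 and 515 without the filter, 139 and 134 with at least 10 in every library, 368 and 352 with robust moderation, and 442 and 461 with GC content correction. Markers called lower were 1 (*LGR4*) instead of 0 under the 3 scalings, robust moderation and GC content correction, and markers called higher were 1 with at least 10 in every library. Over the related lists, 11 genes were called higher and 3 lower; the calls lower were 5 with equal totals and 6 with GC content correction, and 5 higher and 0 lower were called with at least 10 in every library. At the study's thresholds (fold change over 4, adjusted p under 0.01) there were 0 calls in each of these counts. These thresholds were applied only to the main fit (4 libraries, genes with a mean of at least 10, no block). In the main fit the smallest adjusted p was 0.0423 with limma, so no gene could pass, and 1912 genes were at an unadjusted p under 0.05. Some alternatives had a smaller minimum, such as 0.0016 with limma under the block with GC content correction. The study itself used DESeq2 and reported genes both upregulated and downregulated at these thresholds, so the 0 calls describe only the main limma fit. Without 1 library all these counts ranged from 0 to 0, with 1119 to 1330 genes at an unadjusted p under 0.05 by limma and a smallest adjusted p of 0.112 to 0.208. In these fits the lone library is assumed to vary like the other condition.

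Neither the labels nor the methods say that a replicate number marks a shared batch. Differences between replicates were correlated between the conditions across genes (0.724), but 2 pairs do not settle the pairing. With the replicate block 523 genes were called higher and 500 lower, and with the block and GC content correction 1215 and 1249. In both blocked fits *LGR4* was called lower, making 1 marker, and 3 markers were called higher, with *LRIG1* added to *ASCL2* and *PROM1*. Of the related lists 20 genes were called higher and 14 lower with the block and GC content correction.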

Other observations

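*CDKN1C*, the gene nearest in pattern to *ASCL2*, also lies near it, at chr11:2883213-2885773 (GRCh38), 612 kb away. This was noticed after the values were seen. Of 37 other genes within 1000000 bases of *ASCL2*, 9 were at 0 in every library and 13 were tested. *CDKN1C* was the 1 called higher (difference 3.31, adjusted p 0.0423 with limma) and 0 were called lower, beside 4.33% and 3.7% over all genes tested. *CDKN1C* passed the filter only through its APC shRNA values. *CD81*, 105 kb from *ASCL2*, was at 58 and 71 in NonS cells, against 107 and 138 in APC shRNA cells, with a difference of 0.91 at an adjusted p of 0.0817. *TSSC4*, 130 kb away, was at 16 and 19 in NonS cells, against 28 and 29 in APC shRNA cells, with a difference of 0.68 at an adjusted p of 0.0596. *SLC22A18*, 629 kb away on the side of *CDKN1C*, was at 22 and 29 in NonS cells, against 15 and 16 in APC shRNA cells, with a difference of -0.67 at an adjusted p of 0.0984. *PHLDA2* and *NAP1L4*, which lie beyond *CDKN1C*, had differences of 0.05 and 0.01.

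Levels of the intestinal homeobox genes were low and differed in direction. *CDX1* was at 2 in both NonS libraries and at 0 in both APC shRNA libraries, whereas *CDX2* was at 0 in both NonS libraries, against 2 and 4 in APC shRNA cells.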
